A study of Mus musculus with 14 samples.

Results

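The genes described here are 10 RNA-binding proteins that read N6-methyladenosine (m6A), the most common internal mark on messenger RNA, or that bind RNA in a way the mark changes. They are Ythdf1, Ythdf2, Ythdf3, Ythdc1 and Ythdc2 of the YTH family, Igf2bp2 and Igf2bp3 of the IGF2BP family, the nuclear ribonucleoproteins Hnrnpa2b1 and Hnrnpc, and Fmr1. They were picked by gene symbol, and all 10 were found among the 17656 genes of the files.

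Liver RNA of 14 mice on a C57BL/6 background was sequenced, each library being taken as 1 mouse. Wild-type (WT) and Ythdf1-/- mice (KO), aged 8 weeks, received saline or concanavalin A (ConA) at 8 mg/kg into the tail vein, and the whole liver was taken 8 h later. ConA is a plant lectin that activates T cells and brings on an immune hepatitis. The groups were WT saline (3 mice), KO saline (3 mice), WT ConA (4 mice) and KO ConA (4 mice), all from male mice by the study's account. Of the Y-linked genes looked at, Uty was at 0.87 to 2.12 TPM over all libraries. Ddx3y reached no more than 0.02 TPM and Eif2s3y no more than 0.07 TPM in any library. Sex was not tested. The knockout was made with CRISPR/Cas9 in the germ line and so is not limited to a cell type. Values are transcripts per 1000000 (TPM), which are scaled for gene length and can be compared between genes. The files hold no read counts, so the depth of each library is unknown and errors are those between mice.

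As background, the cytoplasmic YTHDF proteins bind methylated mRNAs and have been tied to their translation and decay, while the nuclear YTHDC1 acts in splicing and export. IGF2BP proteins keep methylated mRNAs stable. HNRNPA2B1 and HNRNPC bind nuclear RNA, the latter at sites that the mark opens, and FMRP, the product of Fmr1, represses translation and takes part in the export of methylated mRNAs.

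The KO label could not be checked on the Ythdf1 value, since the drawing of the targeting strategy in the study removes exon 3 alone. Ythdf1 lies on the minus strand of chromosome 2 (GRCm38.p6, chr2:180904377-180920936), and its exon 3 (chr2:180919135-180919214) holds 80 coding bases, 2.51% of a transcript of 3184 bases. That length is not a multiple of 3. The exon number is that of this transcript, which has 5 exons. In another coding transcript, of 2272 bases, the same stretch is exon 4, and exon 3 is a different one of 81 bases. The text of the study does not say which numbering its drawing follows. The first sequence is shown because, with the 5-exon numbering, it holds the only stretch whose reads the deletion removes. It gives the last bases of exon 2, exon 3 in capitals and the first bases of exon 4, and the second sequence is the junction that remains, with exon 4 in capitals.
Ythdf1 exons 2, 3 and 4: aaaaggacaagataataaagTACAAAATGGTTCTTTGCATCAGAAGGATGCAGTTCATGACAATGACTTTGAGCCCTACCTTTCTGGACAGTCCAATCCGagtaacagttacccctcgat
Ythdf1 exon 2 joined to exon 4: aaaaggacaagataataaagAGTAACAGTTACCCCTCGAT
Reads were 50 bases long, and 4.12% of the 50-base windows of the transcript touch exon 3. A KO library can therefore show nearly the whole Ythdf1 value, and in what follows Ythdf1 in KO libraries means RNA from the rest of the locus, not an intact reader.

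The 3 Ythdf genes are close paralogues, so it was asked whether their reads can be told apart. No 50-base window was shared between any of the 10 readers. The coding stretch in which Ythdf1 is most like both paralogues lies in exon 4 of each gene, at chr2:180910982-180911031 (minus strand), chr4:132204427-132204476 (minus strand) and chr3:16205080-16205129 (plus strand) of GRCm38. Capitals mark bases that differ from Ythdf1.
Ythdf1: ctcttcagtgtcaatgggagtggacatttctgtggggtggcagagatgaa
Ythdf2: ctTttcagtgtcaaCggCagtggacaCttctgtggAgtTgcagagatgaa
Ythdf3: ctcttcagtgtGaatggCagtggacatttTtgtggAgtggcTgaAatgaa
Even here Ythdf2 and Ythdf3 each differed from Ythdf1 at 6 of 50 bases, and the fewest differences found between any coding windows of Ythdf1 and Ythdf2 were 5. Over the rest of the readers, the share of 50-base windows found in no other annotated gene was 100% for Ythdf1, Ythdf3, Ythdc2 and Igf2bp2, 99.5% for Fmr1, 97.6% for Hnrnpa2b1, 91.5% for Ythdf2, 87.7% for Hnrnpc and 81.8% for Ythdc1. For Igf2bp3 it was 65.6%, since the gene overlaps Malsu1 on the opposite strand, which was listed at 26.4 to 42.8 TPM. Whether counting used strand is not given in the sources used here, so the low Igf2bp3 values are uncertain.

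In WT saline livers the readers spanned a wide range of levels. Hnrnpa2b1 was the highest at 163 ± 10.1 TPM (mean ± SD, n = 3), above 95.6% of all genes, followed by Hnrnpc at 51.6 ± 4.94 TPM. Together these nuclear proteins made up 78.1% ± 1.0 of the summed TPM of the 10 readers. Ythdf3 stood next at 21.0 ± 1.93 TPM, then Ythdf1 at 13.1 ± 0.96 TPM and Ythdc1 at 9.22 ± 1.22 TPM, each with a range apart from its neighbour's. Fmr1 (7.63 ± 0.53 TPM) and Ythdf2 (7.47 ± 0.92 TPM) had overlapping ranges. Ythdc2, an RNA helicase best known from germ cells, had 1.19 ± 0.21 TPM, Igf2bp2 0.36 ± 0.07 TPM and Igf2bp3 0.17 ± 0.08 TPM. The third IGF2BP gene, Igf2bp1, was listed at no more than 0.03 TPM in any library, and IGF2BP1 and IGF2BP3 are known as proteins of fetal tissue and tumours.

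In the ConA livers the order was less sharp. Hnrnpa2b1 and Hnrnpc stayed first and second, but the ranges of Ythdf1, Ythdf3 and Ythdc1 overlapped in both genotypes. In KO ConA, Ythdc1 had the third highest mean at 25.1 ± 5.10 TPM, ahead of Ythdf3 and Ythdf1.

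**Figure D1:**
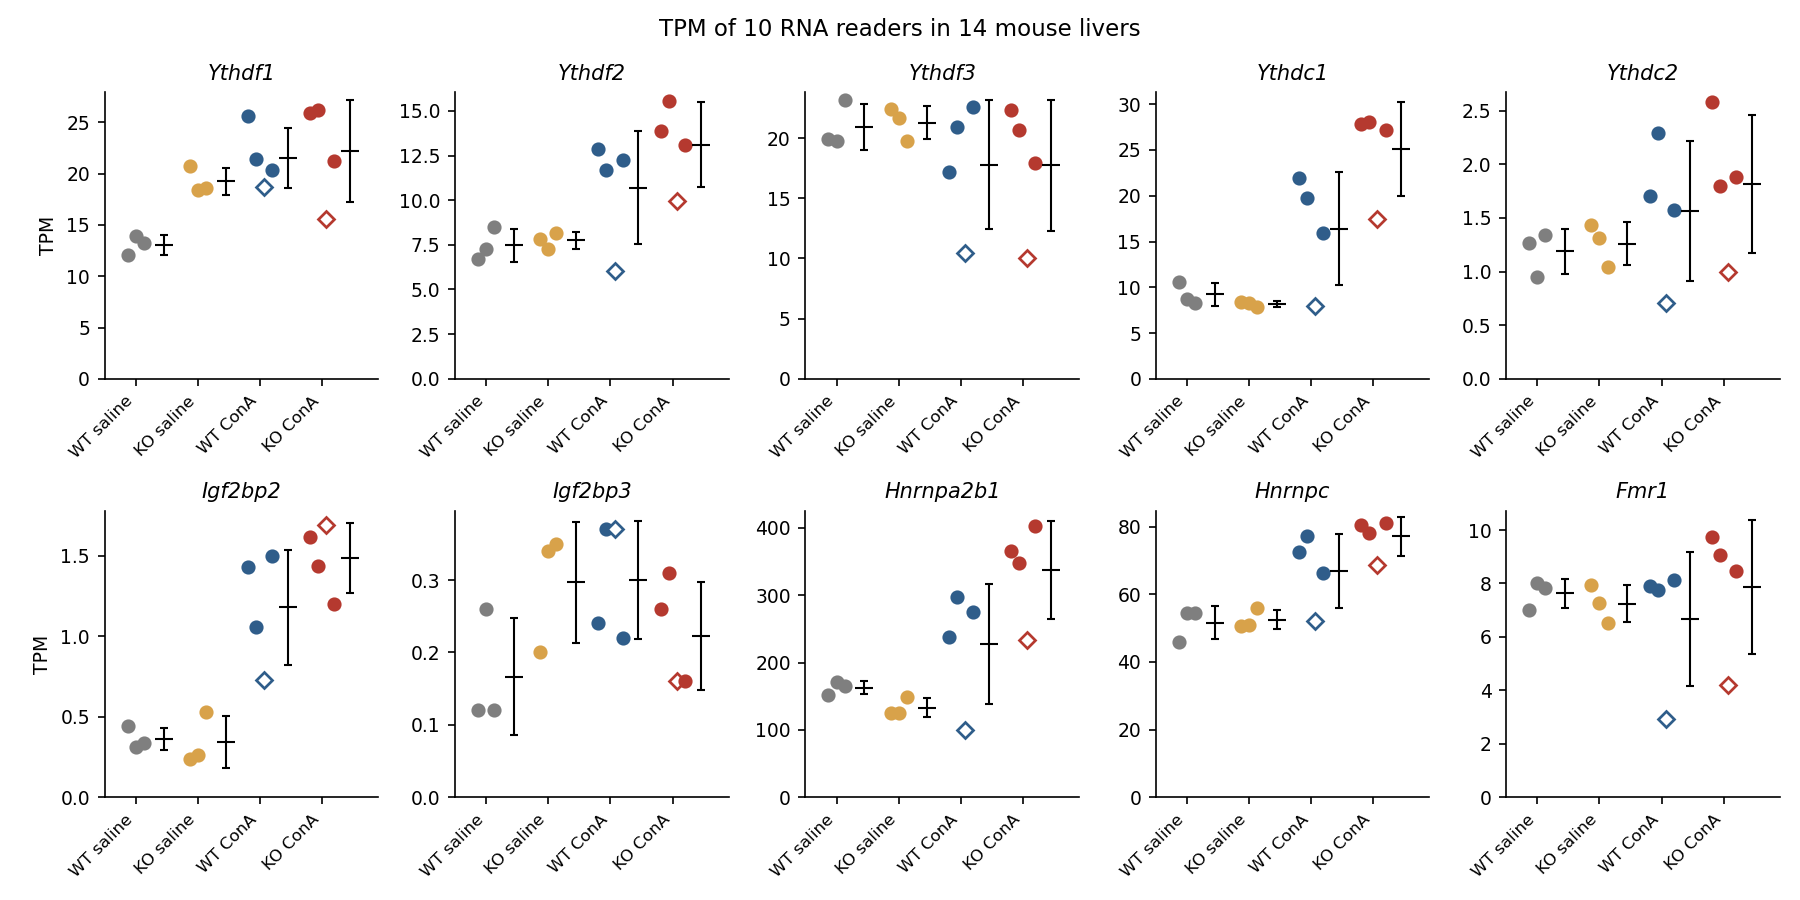
TPM of each reader (vertical axes, linear, from 0) in the 14 livers by group, with the mean and SD of each group at its right. Open diamonds are replicate 3 of each ConA group. Ythdf1 was lowest in the 3 WT saline livers, at 12.03 to 13.9 TPM, and replicate 3 was the lowest of its ConA group for 9 of 10 readers in WT and for 9 of 10 in KO.

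Replicate 3 of both ConA groups stood apart, and it bears on every ConA result. In each genotype it was the lowest of 4 libraries for 9 of 10 readers, the exception being Igf2bp3 in WT and Igf2bp2 in KO, and Igf2bp3 in KO being a tie with another library. Of the genes at a TPM of at least 1 in all 4 libraries, 57.7% of 9523 were lowest in replicate 3 in WT ConA and 62.4% of 9709 in KO ConA. Fmr1 was at 2.92 TPM in WT ConA replicate 3 and at 7.77 to 8.12 TPM in the other 3, and Hnrnpa2b1 was at 99.6 TPM against 238 to 298 TPM. On the log2(TPM + 1) scale, the median difference of replicate 3 from the other 3 libraries over these genes was -0.29 in WT ConA and -0.26 in KO ConA. The same median was -0.92 over the 7 readers among them in WT and -0.62 over 9 in KO. In plain TPM, a measure not quite the same, Ythdf1 in WT (83.4% of the mean of the other 3) and Hnrnpc in KO (85.8%) were close to the medians over all genes. Most readers lay below. In the medians over genes the deficit grew with transcript length. With genes split by length into 4 equal bins, the median was 0.04 in WT and -0.01 in KO in the shortest bin, and -0.58 and -0.51 in the longest. Hnrnpa2b1, at 1728 bases within the shortest bin (216 to 1849 bases), was at 36.9% of the other 3 in WT and 62.9% in KO. Fmr1, at 4409 bases within the longest bin, was at 36.8% and 46.3%. Ythdf1 (3184 bases) and Ythdc1 (3269 bases) were at 83.4% and 41.2% in WT. The part of transcript length in the reader values was not tested beyond the correction given with the alternatives, and values without replicate 3 are given for the readers and for the counts of each gene list.

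**Figure D2:**
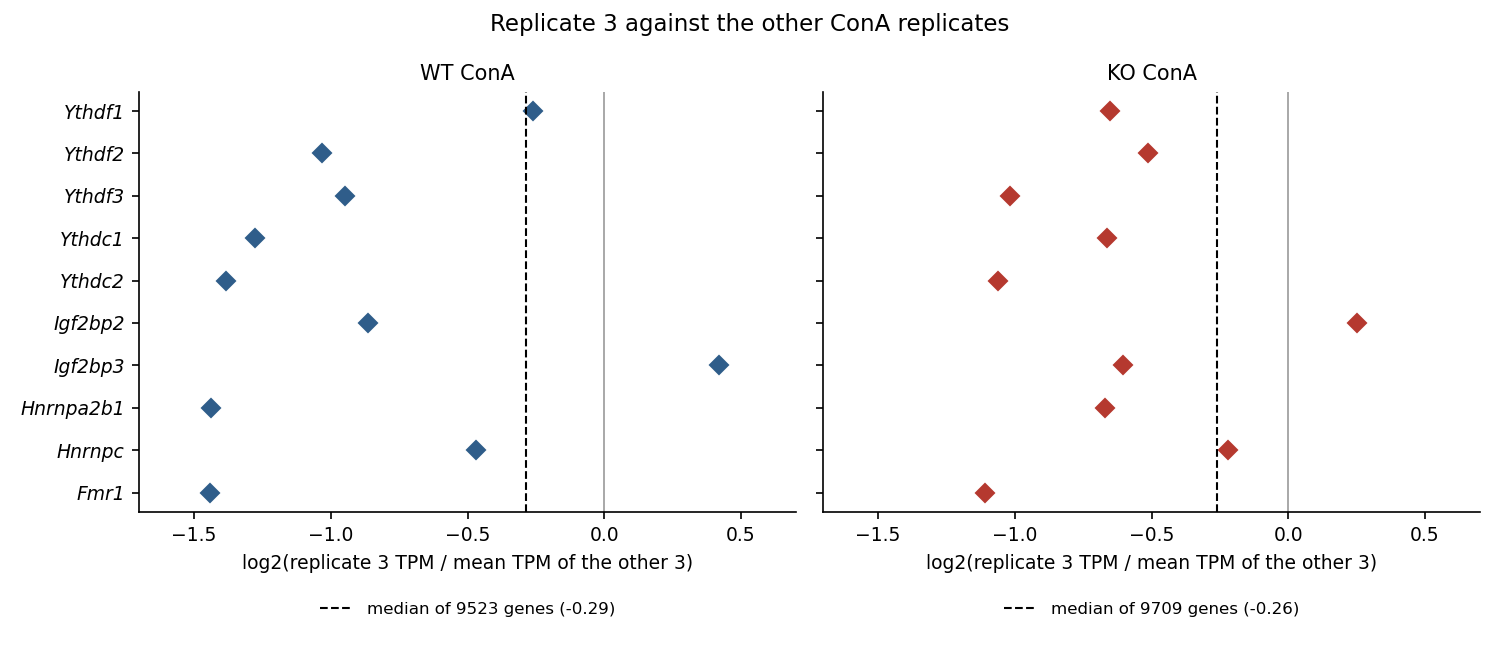
Log2 ratio of the TPM in replicate 3 to the mean TPM of the other 3 libraries (horizontal axis) for each reader in WT ConA and KO ConA, with the median over all genes as a dashed line. In both groups 9 of 10 readers sit below 0, with Fmr1 at 36.8% of the others in WT and 46.3% in KO.

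One more pair of libraries stood apart. WT saline replicates 2 and 3 had a median absolute log2 ratio of 0.082 over 8743 genes, whereas the other 17 replicate pairs had 0.131 to 0.470. Without counts it could not be tested whether they differ by more than sampling noise, so counts and calls that change when this pair is averaged and counted as 1 mouse are given beside the results against WT saline.

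The first comparison asked what ConA did to the readers in WT livers, and in it Ythdf1 and Igf2bp2 rose. Ythdf1 had 12.03, 13.9 and 13.3 TPM in WT saline and 25.6, 21.4, 18.7 and 20.3 TPM in WT ConA. Every ConA liver was above every saline liver, and the ratio of the means was 1.65. On the log2(TPM + 1) scale, on which changes of low genes are understated, the difference was 0.67 ± 0.14 (SE), with an adjusted p of 0.0035 in limma. Its adjusted p lay between 4.9e-04 and 0.020 over 17 other ways of processing, so the call did not rest on any of them. Without replicate 3 it was 0.73 ± 0.11 (adjusted p 9.9e-04), and with the WT saline pair averaged the adjusted p was 0.016.

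Igf2bp2, which stabilises target mRNAs and acts in metabolism, was at 0.44, 0.31 and 0.34 TPM in WT saline and at 1.43, 1.06, 0.73 and 1.5 TPM in WT ConA. The groups did not overlap, and the ratio of the means was 3.25, although the levels are low in both. The difference on the log2(TPM + 1) scale was 0.66 ± 0.16 (adjusted p 0.0059), and without replicate 3 it was 0.77 ± 0.12 (adjusted p 0.0010). Igf2bp2 passed the filter of 1 TPM only through its ConA libraries, so that it had to differ to be tested at all. The call is therefore given as a description.

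Called were 2 of the 9 readers tested, both higher, against 53% of all genes called either way, 22% called higher and 31% called lower. With the WT saline pair averaged the count was also 2. Igf2bp2, which had to differ to be tested, is 1 of these 2. A filter at TPM of 5 leaves out Igf2bp2 and Ythdc2. With it 1 of 7 readers was called, where 1725 genes were called higher and 2631 lower of 7567. The same 2 were the readers whose groups did not overlap, where 23.3% of all tested genes had every ConA liver above every saline liver and 34.7% below. The median difference of the readers was 0.37 against -0.07 over all genes tested. Ythdf2, a reader tied to mRNA decay, had 6.68, 7.24 and 8.48 TPM in saline and 12.9, 11.7, 6.01 and 12.3 TPM in ConA. Ythdc1 had 10.6, 8.76 and 8.30 TPM in saline and 22.0, 19.7, 7.92 and 15.9 TPM in ConA. In both genes the other ConA livers exceeded all saline livers, while replicate 3 was below every saline liver, and the differences did not pass the test (0.42 ± 0.24, adjusted p 0.17, and 0.69 ± 0.30, adjusted p 0.080).

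Hnrnpa2b1 showed the same picture, with 152, 171 and 166 TPM in saline and 238, 298, 99.6 and 274 TPM in ConA (0.37 ± 0.33, adjusted p 0.38). Hnrnpc had 45.9, 54.5 and 54.5 TPM in saline and 72.6, 77.1, 52.1 and 66.2 TPM in ConA (0.36 ± 0.16, adjusted p 0.084). Replicate 3 was the only ConA liver within or below the saline range in either gene. Without it, 7 readers were called higher in WT, now including Ythdf2 (0.65 ± 0.11, adjusted p 0.0012), Ythdc1 (0.98 ± 0.14, adjusted p 7.3e-04), Hnrnpa2b1 (0.72 ± 0.11, adjusted p 9.2e-04), Hnrnpc (0.47 ± 0.11, adjusted p 0.0063) and Ythdc2 (0.38 ± 0.14, adjusted p 0.041). Without that library the calls over all genes also grew, to 3439 higher and 3609 lower of 10692 tested.

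Neither Ythdf3 nor Fmr1 was called with or without replicate 3. Ythdf3 had 19.9, 19.8 and 23.2 TPM in WT saline and 17.2, 20.9, 10.5 and 22.6 TPM in WT ConA, a difference of -0.27 with a 95% interval from -0.81 to 0.26. Without replicate 3 the interval was -0.35 to 0.24. Fmr1 had 7.02, 8.03 and 7.83 TPM in saline and 7.90, 7.77, 2.92 and 8.12 TPM in ConA, and its difference of -0.25 turned to 0.05 without replicate 3.

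In KO livers, ConA raised 5 of the 9 readers tested, where 64.6% of all genes were called either way, 33.9% higher and 30.7% lower. Igf2bp2, tested through its ConA libraries, is 1 of these 5. With a filter at TPM of 5, which leaves it out, 4 of 7 readers were called higher. In that setting 2806 genes were called higher and 2576 lower of 7728. Ythdc1 had the largest difference on the log2(TPM + 1) scale, while the ratio of means was larger for Igf2bp2. Ythdc1 had 8.34, 8.31 and 7.83 TPM in KO saline and 27.8, 28.0, 17.5 and 27.1 TPM in KO ConA, with no overlap and a ratio of means of 3.08 (1.49 ± 0.18, adjusted p 2.7e-05). Hnrnpa2b1 rose from 125, 126 and 149 TPM to 365, 348, 234 and 403 TPM, also without overlap (1.31 ± 0.18, adjusted p 6.8e-05). These nuclear readers were followed by Hnrnpc, at 50.6, 51.1 and 55.9 TPM in saline and 80.6, 78.2, 68.6 and 81.1 TPM in ConA (0.54 ± 0.11, adjusted p 0.0014).

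Ythdf2 was the YTHDF gene that rose in KO livers. It had 7.84, 7.24 and 8.19 TPM in KO saline and 13.9, 15.6, 9.93 and 13.1 TPM in KO ConA, and even the lowest ConA liver lay above all saline livers (0.67 ± 0.17, adjusted p 0.0042). Igf2bp2 went from 0.24, 0.26 and 0.53 TPM to 1.62, 1.44, 1.69 and 1.20 TPM, a ratio of means of 4.33 (0.89 ± 0.15, adjusted p 3.1e-04), again through the filter by way of its ConA libraries. These 5 were also the readers without overlap, against 32.8% of all tested genes in that direction and 31.5% in the other. The median difference of the readers was 0.54, against 0.07 over all genes. Without replicate 3 the differences of these 5 readers were 1.65 for Ythdc1, 1.48 for Hnrnpa2b1, 0.60 for Hnrnpc, 0.79 for Ythdf2 and 0.85 for Igf2bp2, and each was still called.

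Ythdf1 did not pass the test in KO livers, at 20.8, 18.4 and 18.6 TPM in saline and 25.9, 26.2, 15.5 and 21.3 TPM in ConA (0.17 ± 0.18, adjusted p 0.42). KO ConA replicate 3 was below every saline liver and the other 3 were above. Without it the difference was 0.33 ± 0.12 (adjusted p 0.034), and 8 of 9 readers were called higher, now with Ythdc2 (0.44 ± 0.14, adjusted p 0.022) and Fmr1 (0.29 ± 0.12, adjusted p 0.049). In that setting the calls over all genes were 4440 higher and 3374 lower of 10881 tested. Ythdf3 was the reader left, at 22.4, 21.7 and 19.8 TPM in KO saline and 22.3, 20.7, 10.03 and 18.0 TPM in KO ConA (-0.30, 95% interval -0.81 to 0.21, and -0.07 without replicate 3). With a correction for transcript length and GC content it was called lower in KO (-0.55, adjusted p 0.0028). Ythdc2 stayed between 0.71 and 2.58 TPM over all 14 libraries, and Igf2bp3 between 0.12 and 0.37 TPM, below the filter in every comparison.

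**Figure D3:**
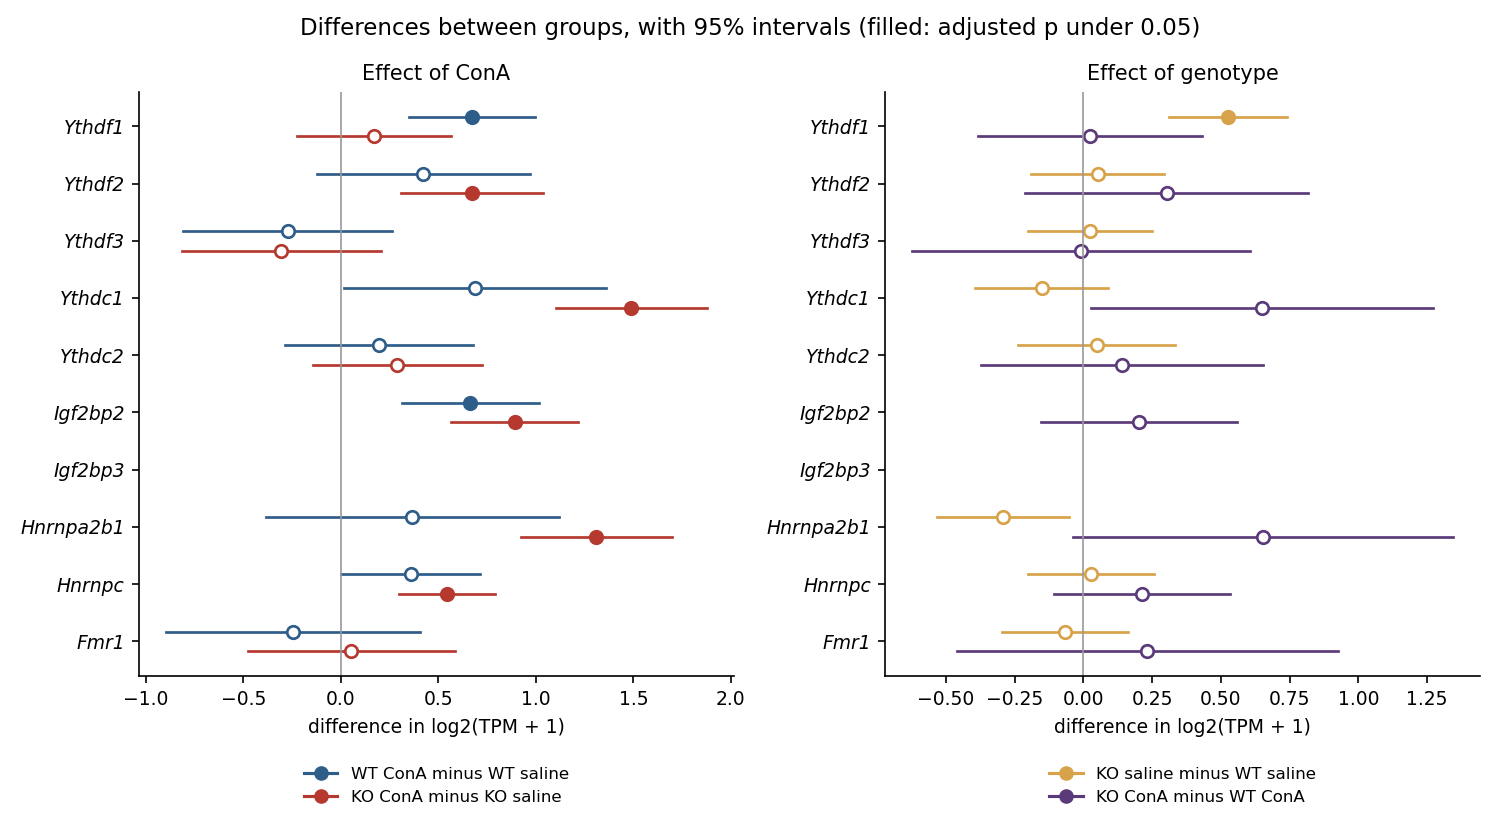
Differences between group means of log2(TPM + 1) with 95% intervals (horizontal axes) for the effect of ConA in each genotype and of genotype in each treatment. Filled points passed an adjusted p of 0.05 in limma. Among the ConA effects 2 readers were filled in WT and 5 in KO, and among the genotype effects only Ythdf1 in saline.

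These are bulk tissues, in which fewer cells of a type and less RNA per cell cannot be told apart, and markers of several liver cells moved with ConA. The summed TPM of 7 hepatocyte markers was 102359 to 128935 in the saline livers and 50881 to 79931 in the ConA livers. Tat, 1 of the 7, rose with ConA in limma, while the others fell. Its difference was 0.78 ± 0.22 in WT (adjusted p 0.013) and 0.56 ± 0.13 in KO (adjusted p 0.0031). The sum of 10 neutrophil markers was 5.44 to 11.8 TPM in saline livers, with Ngp listed at 0 in all KO saline livers. In the ConA livers it ran from 329 to 582 TPM (WT) and from 429 to 991 TPM (KO). Ly6g, 1 of the 10, did not rise in limma, unlike the others. Its difference was -1.15 ± 0.47 in WT (adjusted p 0.063) and -0.21 ± 0.20 in KO (adjusted p 0.37). The sum of 7 Kupffer cell markers was 26.5 to 114 TPM in saline and 5.08 to 32.6 TPM in ConA livers. Over all libraries the sum of 7 T cell markers ran from 1.17 to 6.08 TPM. That of 4 B cell markers ran from 0.41 to 4.11 TPM and that of 6 monocyte and macrophage markers from 16.2 to 67.5 TPM. The part of any of these cells in the reader values was not tested.

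Within the YTHDF family the balance of the paralogues differed between saline and ConA livers, in a measure taken inside each library and so free of its scale. Ythdf3 made up 51.6%, 48.3% and 51.6% of the summed Ythdf TPM in WT saline and 43.9%, 45.8% and 42.5% in KO saline. It made up 30.8%, 38.7%, 29.8% and 40.9% in WT ConA and 36.0%, 33.1%, 28.3% and 34.3% in KO ConA. Every ConA liver had a lower Ythdf3 share than every saline liver. The Ythdf1 share was 29.6% to 34.0% in WT saline, and in the other groups 36.8% or more.

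**Figure D4:**
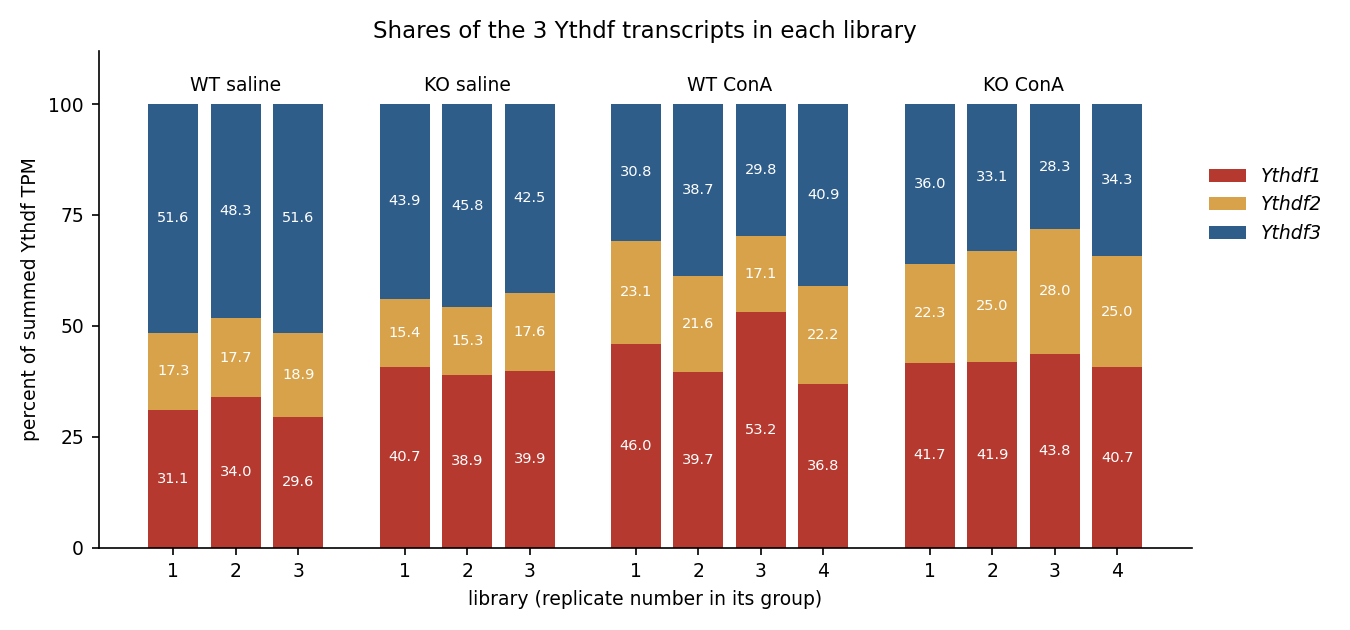
Share of Ythdf1, Ythdf2 and Ythdf3 in their summed TPM (vertical axis, percent) for each of the 14 libraries, by group and replicate number. The Ythdf3 share is 42.5% to 51.6% in the saline livers and 28.3% to 40.9% in the ConA livers.

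The ratio of Ythdf3 to Ythdf2 was 2.42 to 2.996 in the saline livers and 1.01 to 1.84 in the ConA livers. That of Ythdc1, the nuclear YTH reader, to Ythdf3 was 0.36 to 0.53 with saline, whereas the ConA livers had 0.70 to 1.28 (WT) and 1.25 to 1.74 (KO). These ratios are descriptions of transcripts that differ in length (3184 bases for Ythdf1, 4129 for Ythdf2, 5102 for Ythdf3 and 3269 for Ythdc1), and replicate 3 of WT ConA, where longer genes were low, had the highest Ythdf1 share of all at 53.2%. Without both replicates 3 the Ythdf3 shares of the ConA livers were 30.8% to 40.9%, still below all saline livers.

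The next comparison asked how the readers differ between genotypes before any challenge. Ythdf1 had 20.8, 18.4 and 18.6 TPM in KO saline and 12.03, 13.9 and 13.3 TPM in WT saline, so the livers labelled Ythdf1-/- were the higher ones without overlap, with a ratio of means of 1.47. The difference was 0.53 ± 0.09 (adjusted p 0.018), and 1 of 8 readers tested was called, against 19.2% of all genes either way, 6.3% higher and 12.9% lower. In rescaled libraries the genes called were 744 higher and 771 lower, in place of 659 and 1350. It rests on WT saline replicates 2 and 3 counting as separate mice. With the pair averaged, the adjusted p was 0.082, and the genes called were 29 higher and 20 lower. With all 14 libraries sharing 1 estimate of the spread it was 0.12. Leaving out WT saline replicate 2, WT saline replicate 3 or KO saline replicate 1 also ended the call, with adjusted p of 0.080, 0.093 and 0.054.

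Hnrnpa2b1 was lower in KO saline livers without overlap, at 125, 126 and 149 TPM against 152, 171 and 166 TPM, but did not pass (-0.29 ± 0.10, adjusted p 0.081, and 0.028 without KO saline replicate 3). Of all tested genes 29.2% lay below and 13% lay above without overlap. The other readers had overlapping ranges, and the differences of Ythdf2, Ythdf3, Ythdc2 and Hnrnpc were between 0.02 and 0.05. The 95% interval of Ythdf3, the paralogue nearest in level to Ythdf1, ran from -0.20 to 0.25, and that of Ythdf2 from -0.19 to 0.29. Igf2bp2 and Igf2bp3 were under the filter in both groups. The saline groups also differed in marker sums. For WT and KO saline, those of 5 cholangiocyte markers ran from 46.5 to 57.0 and from 83.7 to 89.4 TPM. Most of that sum was Spp1 (41.1 to 53.1 and 68.6 to 77.6 TPM). Krt7 did not overlap either, while Krt19, Epcam and Sox9 did. The sums of 6 sinusoidal endothelial markers ran from 21.5 to 29.1 and from 33.8 to 55.8 TPM. The sums of 7 T cell markers were 1.17 to 2.12 and 2.82 to 3.60 TPM. Kupffer cell markers were lower in KO, with sums of 63.0 to 114 (WT) and 26.5 to 60.3 TPM (KO). Those of 5 stellate cell markers overlapped, at 15.1 to 59.9 (WT) and 55.7 to 95.4 TPM (KO). The sums of the other cell types overlapped as well. Their part in the Ythdf1 value was not tested.

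In ConA livers no reader was called between genotypes (0 of 9 in limma, with 1 at an unadjusted p under 0.05), against 0.428% of all genes, 0.342% higher and 0.0856% lower. The split over all genes was 36 higher and 9 lower, and 12 and 13 in rescaled libraries. All ranges overlapped, where 6.37% of tested genes lay above and 4.11% below without overlap. Ythdc1 had 22.0, 19.7, 7.92 and 15.9 TPM in WT and 27.8, 28.0, 17.5 and 27.1 TPM in KO (0.65 ± 0.28, adjusted p 0.27). Hnrnpa2b1 had 238, 298, 99.6 and 274 TPM in WT and 365, 348, 234 and 403 TPM in KO (0.65 ± 0.31, adjusted p 0.33). In both genes replicate 3 was the lowest of its group, and in KO it was within the range of WT. Leaving out both replicates 3 gave 0.52 ± 0.13 (adjusted p 0.13) and 0.46 ± 0.12 (adjusted p 0.13), again short of the threshold.

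For Ythdf1 the ConA livers of the genotypes had 21.5 ± 2.95 and 22.2 ± 4.99 TPM (n = 4 each), a difference of 0.02 with a 95% interval from -0.38 to 0.43, whose sign turned when libraries were rescaled. Ythdf3 differed by -0.01, with an interval from -0.62 to 0.60. These intervals do not show that the levels were alike. The sums of the neutrophil markers (329 to 582 and 429 to 991 TPM) and of the stellate cell markers (20.7 to 60.0 and 49.5 to 97.3 TPM) overlapped between WT and KO ConA livers, while those of the cholangiocyte markers did not (18.7 to 32.1 and 36.8 to 56.4 TPM). Most of the cholangiocyte sum was Spp1 (10.7 to 23.1 and 25.4 to 47.2 TPM). Epcam did not overlap either, while Krt19, Krt7 and Sox9 did. The part of any of these cells in the reader values was not tested.

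Whether ConA acted differently in the genotypes was tested as an interaction over all 14 libraries, and 0 of 9 readers was called (limma, with 3 at an unadjusted p under 0.05), against 4.78% of all genes, 2.64% higher and 2.14% lower. The median over all genes was 0.14, and 0.03 in rescaled libraries. The difference of the ConA effects, KO minus WT, was 0.94 ± 0.41 for Hnrnpa2b1 (adjusted p 0.17), 0.80 ± 0.37 for Ythdc1 (adjusted p 0.19) and -0.50 ± 0.23 for Ythdf1 (adjusted p 0.20). Without both replicates 3, Hnrnpa2b1 (0.75 ± 0.16, adjusted p 0.013) and Ythdc1 (0.67 ± 0.17, adjusted p 0.026) passed, both with the larger rise in KO, while the median over all genes was 0.14. In that setting the genes called over the whole table rose from 299 higher and 242 lower to 1158 and 433. With the length and GC correction Ythdf1 was the reader that passed (-0.73, adjusted p 0.026). In saline the Hnrnpa2b1 values of KO lay below those of WT, a difference that was not called (-0.29, adjusted p 0.081, limma). The part of that difference in the interaction was not tested.

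**Figure D5:**
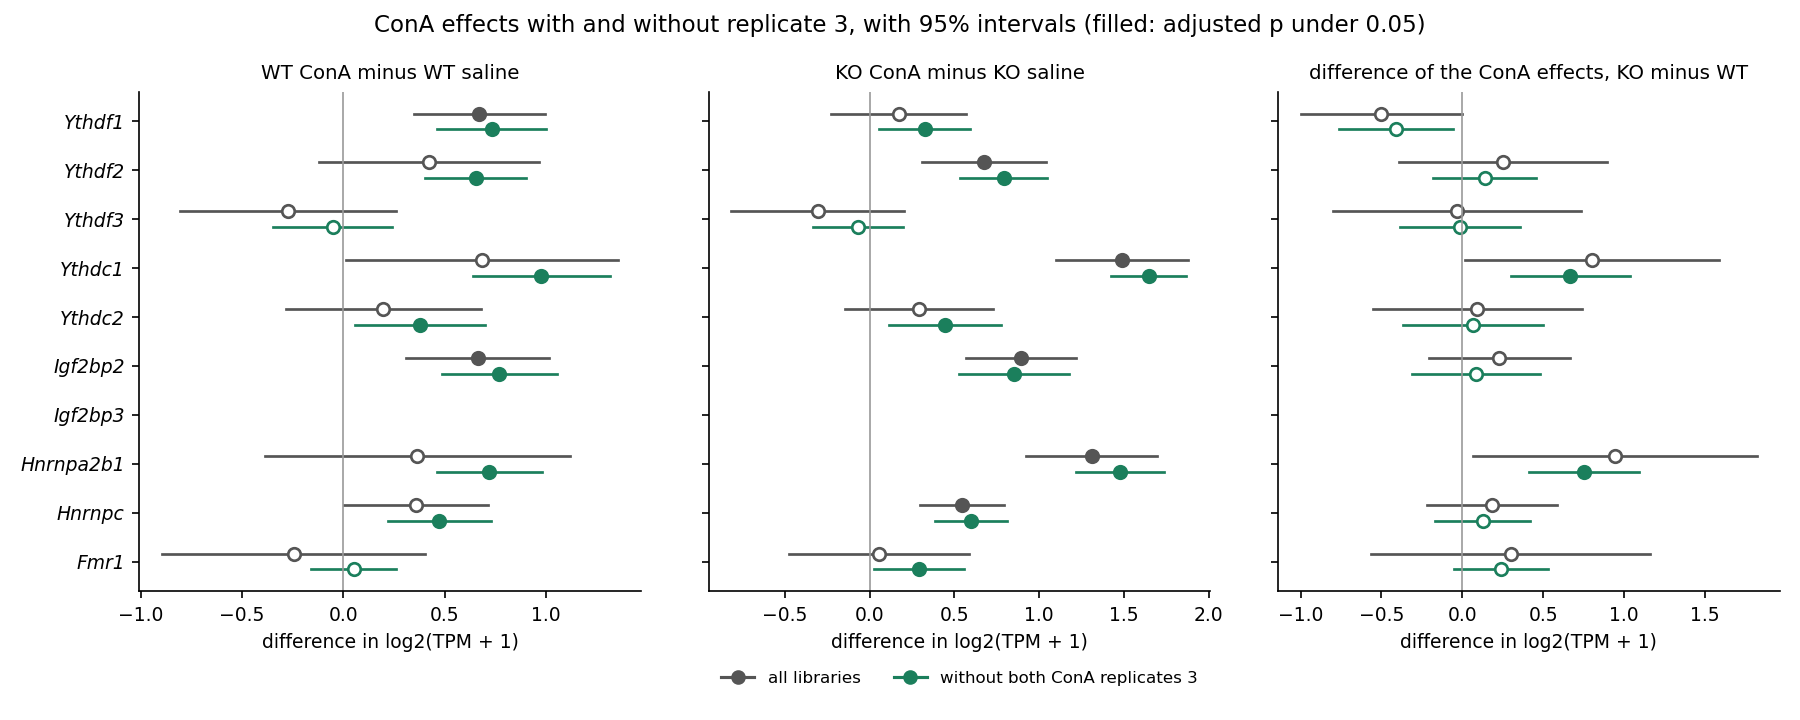
ConA effect on each reader in WT and KO livers and the difference of the effects, KO minus WT, as differences in log2(TPM + 1) with 95% intervals (horizontal axes), from all libraries (grey) and without both ConA replicates 3 (green). Filled points passed an adjusted p of 0.05 in limma, which was 2, 5 and 0 readers with all libraries and 7, 8 and 2 without replicate 3.

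Across the 14 libraries the nuclear readers and Ythdf2 had similar patterns, and Ythdf1 less so. The Pearson correlation of log2(TPM + 1) was 0.94 between Ythdc1 and Hnrnpa2b1, 0.94 between Ythdf2 and Hnrnpc and 0.93 between Hnrnpa2b1 and Hnrnpc. For Ythdf1 it was 0.73 with Ythdf2, 0.71 with Hnrnpc, 0.66 with Ythdc1, 0.59 with Igf2bp2 and 0.53 with Hnrnpa2b1. After the group means were taken out, Ythdf1 had 0.05 with Igf2bp2, but 0.69 with Ythdf2, 0.72 with Ythdf3 and 0.77 with Fmr1. With the group means taken out, the highest of all pairs was 0.95, between Ythdf3 and Fmr1, which were both far down in the replicates 3. The libraries share ConA, genotype and that replicate, so these are descriptions. The genes whose pattern was most like that of Ythdf1 over the 14 libraries, of 11326 compared, were Kif3a (r = 0.94), Tbc1d25 (r = 0.91) and Zmym1 (r = 0.91).

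The enzymes that write and erase the mark were read beside the readers. ConA raised 5 and lowered 1 of 13 writers and erasers in WT livers, with a median difference of 0.43, and raised 9 and lowered 1 in KO livers, with a median of 0.72, against -0.07 and 0.07 over all genes. Of all tested genes 53% were called in WT and 64.6% in KO, so the WT share was below and the KO share above that of all genes. With the WT saline pair averaged the WT count was 3 higher and 1 lower. The list genes named below as raised or lowered by ConA kept their calls without both replicates 3, Zc3h13 in KO not being followed there. In WT they also kept them with that pair averaged, except Cd44. Alkbh5, a demethylase, was at 14.5 to 17.3 TPM in the saline livers and at 32.1 to 63.3 TPM in the ConA livers (1.29 ± 0.16 in WT, adjusted p 1.6e-04, and 1.61 ± 0.18 in KO, adjusted p 1.7e-05). Zc3h13, a partner that holds the writer complex in the nucleus, lay between 4.22 and 4.51 TPM in the WT saline livers and rose to between 15.7 and 35.7 TPM (2.06 ± 0.25, adjusted p 1.4e-04). In KO it rose as well, from between 4.48 and 5.42 TPM to between 9.46 and 27.6 TPM (1.68 ± 0.29, adjusted p 4.6e-04, limma). Rbm15b, an adaptor that directs the writer complex to RNA, rose in both genotypes (1.23 ± 0.14, adjusted p 8.2e-05, in WT and 1.46 ± 0.19, adjusted p 4.9e-05, in KO), and its relative Rbm15 in KO (1.23 ± 0.20, adjusted p 2.7e-04).

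The gene that fell was Mettl5, a methyltransferase of ribosomal RNA, from 17.5 to 20.3 TPM in the saline livers to 7.95 to 10.2 TPM in the ConA livers (-0.94 ± 0.13, adjusted p 2.7e-04, in WT and -1.0 ± 0.13, adjusted p 5.4e-05, in KO). The catalytic subunit Mettl3 was not called in either (0.29 ± 0.13, adjusted p 0.092, and 0.32 ± 0.19, adjusted p 0.16). No writer or eraser was called between genotypes in saline, in ConA or in the interaction (limma), where 1, 1 and 2 of the 13 had an unadjusted p under 0.05. Without both replicates 3, the count was 10 higher and 2 lower in WT, 10 higher and 1 lower in KO, and 2 higher in the interaction. Over all genes that setting gave 3439 higher and 3609 lower of 10692 in WT and 4440 and 3374 of 10881 in KO. In the interaction it gave 1158 and 433 of 11270. The same counts over all genes apply to the lists that follow.

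Other proteins that bind methylated RNA gave a similar count. ConA raised 5 of 9 tested in WT and 8 of 9 in KO, with medians of 0.50 and 0.565. Of all genes 22% and 33.9% were called higher, and 53% and 64.6% either way. None was called lower, but in WT 1 was without both replicates 3 (6 higher), 1 with all 14 libraries (5 higher) and 2 with the length and GC correction (6 higher). In KO the count without replicate 3 was again 8 higher. With the WT saline pair averaged it was 4 higher in WT. G3bp2, a stress granule protein, lay between 13.4 and 16.8 TPM in the WT saline livers and between 19.3 and 49.7 TPM after ConA (1.12 ± 0.29, adjusted p 0.0092), and in KO between 9.71 and 13.7 TPM with saline and between 53.6 and 82.5 TPM after ConA (2.40 ± 0.17, adjusted p 6.3e-07). G3bp1 rose beside it (0.78 ± 0.18, adjusted p 0.0056, and 1.305 ± 0.12, adjusted p 5.6e-06). Rbmx, a nuclear relative of the HNRNP proteins, also rose in both (0.67 ± 0.17, adjusted p 0.0072, and 1.25 ± 0.19, adjusted p 1.9e-04). Without both replicates 3, 3 were called higher in the interaction, and 0 with all libraries (limma). The only one called between genotypes was Fxr1, a paralogue of Fmr1, with 27.4 to 28.8 TPM for WT saline, above the 15.7 to 17.7 TPM of KO saline (-0.69 ± 0.08, adjusted p 0.0074). With WT saline replicates 2 and 3 averaged its adjusted p was 0.065. Fmr1 itself differed by -0.07 there (95% interval -0.29 to 0.16).

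Of the proteins that work with the readers, such as decay, translation and export factors, 3 rose and 1 fell of 10 tested in WT, and 6 rose and 2 fell of 11 in KO, beside 53% and 64.6% of all genes called. Ago2, which had to differ to be tested in KO, is 1 of these 6. The medians were -0.0023 in WT and 0.59 in KO. Without replicate 3 the counts were 5 higher and 1 lower in WT and 9 higher and 2 lower in KO, and with the WT saline pair averaged 2 higher and 1 lower of 12 in WT. Srsf3, a splicing factor that YTHDC1 brings to RNA, rose by 1.67 in both genotypes (SE 0.21, adjusted p 1.5e-04, in WT and SE 0.13, adjusted p 1.0e-06, in KO). Rida, which links YTHDF2 to an RNA-cutting enzyme, fell from 2155 to 2665 TPM in the saline livers to 602 to 915 TPM in the ConA livers (-1.49 ± 0.16, adjusted p 5.4e-05, in WT and -1.80 ± 0.12, adjusted p 5.1e-07, in KO). Rida is abundant in hepatocytes, whose marker sum was lower in the same livers. The part of hepatocytes in the Rida values was not tested. Ago2, which acts in small RNA silencing with FMRP, was the 1 partner past the threshold in the interaction (0.95 ± 0.22, adjusted p 0.033), with ranges of 0.37 to 0.59 (WT saline), 0.26 to 0.39 (KO saline), 0.61 to 1.51 (WT ConA) and 2.07 to 3.09 TPM (KO ConA). It met the filter of 1 TPM through ConA libraries alone, so its values in KO and in the interaction are a description. With the near-identical pair averaged its adjusted p was 0.10. In saline, Eif3a, a translation initiation subunit, was lower in KO at 27.0 to 33.2 against 44.2 to 46.1 TPM (-0.63 ± 0.10, adjusted p 0.016, and 0.083 with that pair averaged).

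Of the transcripts known to be bound by IGF2BP proteins, ConA raised 4 of 5 tested in WT and 5 of 5 in KO. Their medians were 1.06 and 2.05, where 22% and 33.9% of all genes were called higher. A part of Igf2bp2 in these values was not tested. Ccnd1 was not called in WT (0.44 ± 0.46, adjusted p 0.45) and rose in KO (2.12 ± 0.31, adjusted p 1.2e-04, limma). Without replicate 3 the counts were again 4 and 5, and with the WT saline pair averaged 3 in WT. The other 3 of the 8 listed were under the filter. Myc rose in WT, where saline livers lay between 1.68 and 3.05 TPM and ConA livers between 4.87 and 7.04 TPM (1.23 ± 0.19, adjusted p 6.0e-04). In KO it lay between 1.31 and 2.05 TPM with saline and between 10.04 and 13.3 TPM with ConA (2.17 ± 0.17, adjusted p 1.4e-06). The interaction was 0.94 ± 0.26 (adjusted p 0.048), and it passed under 6 of 23 other settings, with adjusted p from 0.041 to 0.13. Actb, Hmga1 and Cd44 rose in both genotypes, Actb by 1.96 ± 0.11 (adjusted p 1.3e-06) and 2.05 ± 0.17 (adjusted p 1.9e-06). Cd44 in WT (0.71 ± 0.23, adjusted p 0.025) did not pass with the pair averaged (adjusted p 0.084). Actb and Cd44 are also abundant in leukocytes, and the neutrophil marker sum was higher in the same livers. The part of either in these values was not tested. In saline Actb was higher in KO (0.65 ± 0.08, adjusted p 0.0085, and 0.070 with the pair averaged). The fetal clients Hmga2 and Lin28b were at or below 0.50 TPM in every library.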

How the data were processed

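Liver RNA of 14 mice was read on a BGISEQ-500 (single-end, 50 bases), and the authors deposited 1 table of TPM values per mouse for 17656 genes, with 2 decimals. The submitters' processing notes name Bowtie2, RSEM 1.3.1 and GRCm38.p6, whereas the methods of the study name STAR and HTSeq. Which of them made the deposited TPM is not given in the sources used here. Depth is unknown, and every deposited column was used. Groups and replicate numbers were taken from the labels, which do not name single mice. The methods of the study describe biological replicates, so each library was taken as 1 mouse.

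A gene entered a comparison if the number of libraries with a TPM of at least 1 reached the size of the smaller group. log2(TPM + 1) was modelled in R 4.3.3 by limma 3.58.1, using lmFit and then eBayes with a trend, with the libraries of the groups compared, and with all 14 for the interaction of genotype and ConA. p-values were two-sided and adjusted by Benjamini-Hochberg over all genes tested, and a gene was called at an adjusted p under 0.05. The fits were tested on simulated data. Other settings used 0.1 as pseudocount, TPM of 5 or nothing as filter, libraries rescaled by their median ratio, all 14 libraries in the fit, robust eBayes, a replicate block, WT saline replicates 2 and 3 averaged, both ConA replicates 3 left out, and 1 library omitted at a time. A correction for transcript length and GC content (GENCODE vM21, 96.6% of genes matched) and the alternatives for the other lists were added after the data were seen.

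The readers, the gene lists and the tests were chosen with earlier results of these data known. All 10 readers were named, list genes where they were called, at most the 4 with the smallest adjusted p per list and comparison, and the 3 genes with the highest correlation to Ythdf1. Mettl3, Zc3h13 in KO, Igf2bp1, Hmga2, Lin28b, Ccnd1, Malsu1, the single cell type markers and the Y-linked genes were named after their values were seen. Locations are from RefSeq on GRCm38.p6, exons and sequences from GENCODE vM21. Figures used Python 3.11.15 with matplotlib 3.10.9.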

Additional observations from a re-analysis of the deposited data

Results flagged for a closer look

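Among the ConA groups, 2 of the 20 sets of 4 values (10 readers in 2 groups) held a library whose gap to its nearest neighbour, as a share of the range, was above the 95% limit of Dixon's test. Both were replicate 3. Ythdc1 in KO ConA replicate 3 was at 17.49 TPM, a gap of 0.916 of the range, with the other 3 livers at 27.1 to 28.0 TPM. Fmr1 in WT ConA replicate 3 was at 2.92 TPM, a gap of 0.933 of the range, with the other 3 at 7.77 to 8.12 TPM. Chance alone marks about 1 in 20 such sets, and the readers of a library are not independent of each other.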

How the results depend on the processing

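The count of readers called with ConA in WT livers was 2, and it was 1 with a filter at TPM of 5, 4 with rescaled libraries, 4 with all 14 libraries in the fit, 5 with the length and GC correction, 7 without both ConA replicates 3, and 1 to 7 with each library left out in turn. In KO livers it was 5, 8 without both replicates 3 and 5 to 8 with each library left out. Between the saline groups it was 1, 0 with all 14 libraries, 0 with the near-identical WT saline pair averaged, and 0 to 2 with each library left out. Between the ConA groups it was 0 throughout. In the interaction it was 0, 2 without both replicates 3 and 1 (Ythdf1, -0.73) with the length and GC correction.

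Some differences that were not called changed sign. Without both replicates 3 that of Fmr1 with ConA in WT was 0.052 and that of Ythdf3 between the ConA groups 0.0087, and in rescaled libraries Ythdf1 between the ConA groups was -0.052. With the length and GC correction, which was chosen after seeing the data, the KO effects of ConA were -0.014 for Ythdf1, -0.058 for Ythdc2 and -0.21 for Fmr1, and Ythdf3 was called lower (-0.55). With it Ythdc1 and Fmr1 were at 0.039 and 0.13 between the saline groups, Ythdf1 and Ythdc2 at -0.070 and -0.041 between the ConA groups, and Ythdf2, Ythdc2, Hnrnpc and Fmr1 at -0.078, -0.305, -0.148 and -0.057 in the interaction. With single libraries left out, the range was -0.055 to 0.29 for Fmr1 with ConA in KO and -0.35 to 0.052 in WT. Between the saline groups it was -0.053 to 0.067 for Hnrnpc, -0.032 to 0.12 for Ythdc2, -0.015 to 0.14 for Ythdf2 and -0.015 to 0.095 for Ythdf3. Between the ConA groups it was -0.064 to 0.47 for Fmr1, -0.041 to 0.295 for Ythdc2, -0.060 to 0.18 for Ythdf1 and -0.23 to 0.23 for Ythdf3, and in the interaction -0.090 to 0.25 for Ythdc2 and -0.25 to 0.20 for Ythdf3. The cause was not tested.

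Same-numbered libraries did not deviate together in every pair (correlations of -0.26 to 0.49), so replicate numbers were not taken to pair mice. With a replicate block the counts of readers called stayed at 2, 5, 1, 0 and 0.

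Over all genes, calls between the saline groups were 659 higher and 1350 lower, but 387 and 571 with no filter, 441 and 489 with the length and GC correction, 200 and 132 with all 14 libraries and 29 and 20 with the near-identical pair averaged. Between the ConA groups they were 36 and 9, but 1 and 2 with no filter, 12 and 13 in rescaled libraries, 116 and 24 with the block, 158 and 119 with the correction and 416 and 224 with all 14 libraries. In the interaction they were 299 and 242, but 166 and 179 with no filter, 198 and 160 with the block, 19 and 9 with the pair averaged, 522 and 389 with the correction and 1158 and 433 without both replicates 3. Depth is unknown, and groups of 3 or 4 mice limit the precision.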
